A study of Mus musculus with 6 samples.

Results

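HNRNPA2B1 peaks on the Luc7l2 transcript were taken from 4 eCLIP (enhanced UV crosslinking and immunoprecipitation) peak lists of mouse C2C12 cells, 2 of undifferentiated and 2 of differentiated cells. They were selected by position: plus strand of chromosome 6 in mm9, wholly between 38501000 and 38560000, a window of 59 kb that contains the transcripts the study lists for Luc7l2. The gene itself was picked with the peaks of the same 4 lists known, so all counts and scores below are descriptions and carry no test. Of 3895 peaks in the 4 lists, 31 lay in the window. The selection kept only the strand of the gene, and 0 peaks of the opposite strand fell in the window in any list. Exon, intron and UTR positions were not analysed here, because the genome and annotation at hand are of another build.

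Luc7l2 encodes a splicing factor of the LUC7 family, whose members associate with the U1 small nuclear ribonucleoprotein and take part in the choice of 5′ splice sites. HNRNPA2B1 is an abundant RNA-binding protein of the nucleus that acts in splicing, RNA stability and RNA transport. A pre-mRNA of a splicing factor that carries HNRNPA2B1 sites is therefore an RNA on which one splicing regulator contacts the transcript of another. Crosslinking maps such contacts along introns as well as exons, since nuclear pre-mRNA is part of what is recovered.

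C2C12 cells are an established mouse myoblast line whose cells stop dividing and form myotubes when serum is lowered. The series holds IP libraries A and B from undifferentiated cells (C2C12, grown in DMEM with fetal bovine serum), IP libraries A and B from differentiated C2C12, and 1 input sample for each state. No allele or drug was applied in either group. The labels give 8 to 10 days in medium with horse serum and ITS for differentiation, but a shorter time is given in the methods of the study, and the lists do not settle which applies. The labels also give nuclear isolation, whereas the methods describe lysis of cells. Whether the libraries come from nuclei or whole cells is therefore not settled either. The lists hold no expression values, so the cell state of each library could not be checked against marker genes.

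The C2C12 lists held 1 Luc7l2 peak in replicate A and 1 in replicate B. The differentiated C2C12 lists held 16 and 13, a mean of 14.5 ± 2.12 (SD, n = 2). Both differentiated counts were higher than both C2C12 counts, in the same direction as the lengths of the whole lists given below. The lists reach down to a −log10 p of 5, below the cutoff stated in the methods. At a −log10 p of at least 8 C2C12 A kept 1 peak and C2C12 B kept 0, while differentiated A kept 2 and differentiated B kept 4. The differentiated lists were also longer as a whole, with 1499 and 1211 peaks against 594 and 591. As a share of its own list, Luc7l2 took 0.168% of C2C12 replicate A (95% Wilson interval 0.0297 to 0.947) and 0.169% of replicate B (0.0299 to 0.952). In the differentiated lists it took 1.07% of replicate A (0.658 to 1.73) and 1.07% of replicate B (0.628 to 1.83). These intervals cover counting error only and count adjoining peaks as independent, and those of the states overlap. The mean share was 6.34 times higher in differentiated C2C12, compared with 14.5 times for the plain count. The share depended on the cutoff. Among peaks with a −log10 p of at least 8 the mean shares were 0.126% in C2C12 and 0.360% in differentiated C2C12, and among peaks with a log2 value of at least 2 the order turned, at 0.363% and 0.295%.

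Peak numbers depend on how finely a site is divided, so covered length was taken as well. Luc7l2 peaks covered 81 and 76 nt in the C2C12 lists and 816 and 1019 nt in the differentiated lists. The means were 78.5 ± 3.54 and 918 ± 144 nt (SD, n = 2 each), a ratio of 11.7. The differentiated lists as a whole also covered more, 58070 and 67232 nt against 19584 and 20713 nt. As a share of covered length in its list, Luc7l2 took on average 0.390% in C2C12 and 1.46% in differentiated C2C12. That ratio was 3.74. In the lists as deposited, peak number and covered length were both higher in differentiated C2C12 by more than the spread between replicates. This did not hold under every cutoff. At a log2 minimum of 2 the mean covered length was 78.5 nt in C2C12 and 86 nt in differentiated C2C12. In lists cut to equal length by −log10 p the mean peak number was 1 in C2C12 and 0 in differentiated C2C12. That outcome was fixed by the −log10 p ranks given below. Luc7l2 RNA was not quantified here, and read depth is unknown. More binding per transcript, more transcript and a difference in depth therefore cannot be told apart.

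**Figure D1:**
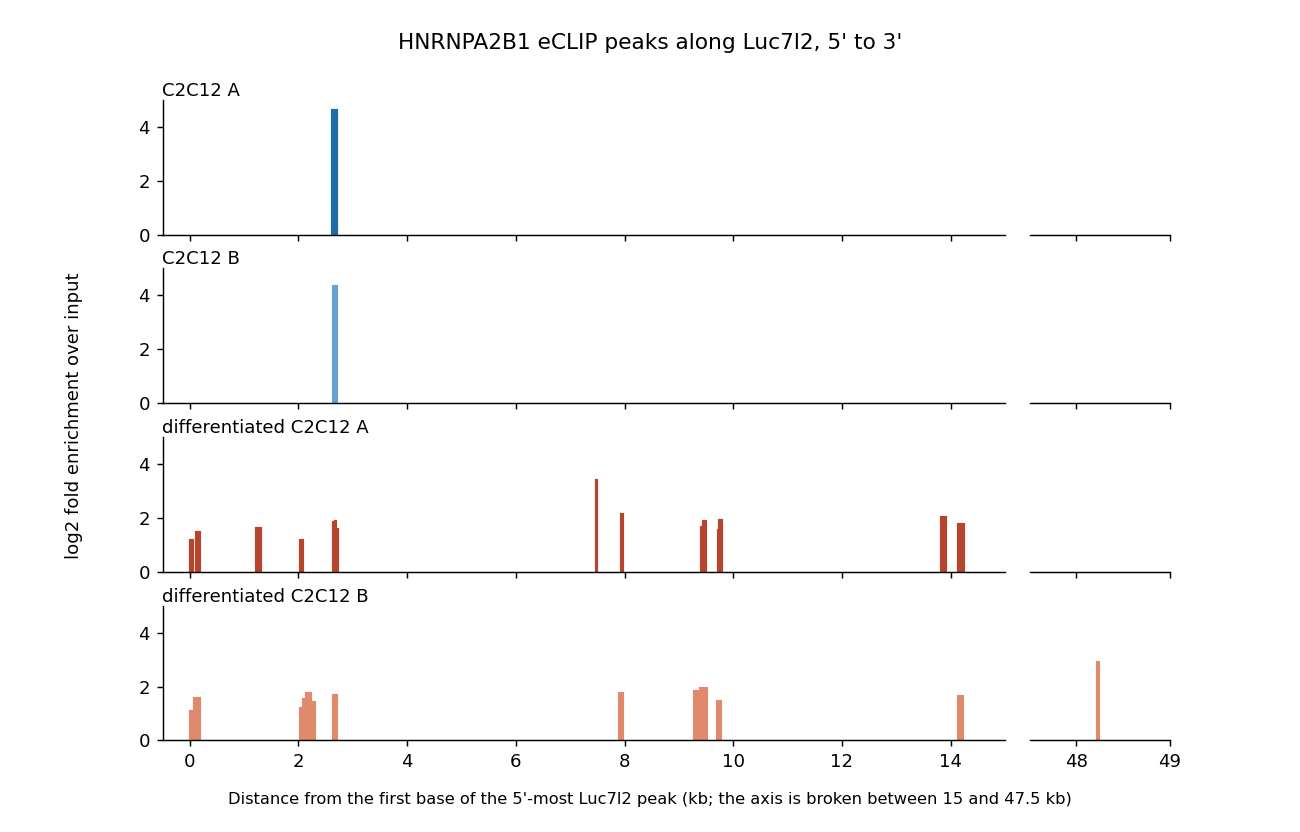
Position of every Luc7l2 peak in the 4 IP lists. The x axis is the distance in kb from the first base of the 5′-most peak, broken between the main group and the single 3′ peak. The height of each bar is the deposited log2 fold enrichment over input, and its width is the peak with a thin outline added. Both C2C12 lists show the same 1 site near 2.63 kb, at log2 values above 4, while the differentiated lists show peaks of lower enrichment spread over 14.2 kb.

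Along the RNA the peaks formed 7 clusters when peaks no more than 500 nt apart were linked. Touching or overlapping peaks of the 4 lists made up 12 regions inside these clusters, numbered 1 to 12 from the 5′ end. Clusters 1 to 6 lay within 14.2 kb, from 38505510 to 38519753, and held 30 of the 31 peaks. Cluster 7 was a single 14 nt peak from 38553734 to 38553747, which lay 33980 nt further 3′. The first peak began 4.51 kb inside the 5′ edge of the window, and the gaps between clusters 1 to 6 ran from 723 to 4742 nt. Binding recorded in this gene was therefore concentrated toward the 5′ part of the window.

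Cluster 1 (38505510 to 38505698, region 1) had 2 peaks in each differentiated list and none in C2C12. Cluster 2 (38506734 to 38506812, region 2) was 1 peak of differentiated replicate A. Cluster 3 (38507536 to 38508242) held regions 3 and 4 and 12 peaks, and it was the cluster with peaks in all 4 lists. Cluster 4 (38512985 to 38513485) held regions 5 and 6. Cluster 5 (38514781 to 38515294) held regions 7, 8 and 9 and 7 peaks. Cluster 6 (38519326 to 38519753) held regions 10 and 11. Clusters 1, 3, 4, 5 and 6 thus had a peak in both differentiated replicates, and clusters 2 and 7 had a peak in 1 of them.

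By region, 1 of 12 had a peak in all 4 lists, against 7.59% of the 1015 regions of the series. Peaks in both differentiated lists and in no C2C12 list were found in 6 of 12, against 19.8% of the series. Peaks in 1 differentiated list only were found in 5 of 12, against 53.1%. None of the 12 had peaks in both C2C12 lists and in no differentiated list, a class that made up 6.9% of the series. Nothing is read from these shares about Luc7l2, since the gene was chosen for this pattern. Lack of a peak means only that no region there met the criteria of the deposited list, and such RNA may still have been bound.

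The site present in both states was region 4, from 38508137 to 38508242. In C2C12 it was a single peak in each replicate, from 38508137 to 38508217 in A and from 38508141 to 38508216 in B. In differentiated replicate B it was again a single peak, from 38508141 to 38508218. In differentiated replicate A it was divided into 4 adjoining peaks that together ran from 38508138 to 38508242. The 5′ ends of the 4 libraries fell within 4 nt of each other. The 3′ ends fell within 2 nt in C2C12 A, C2C12 B and differentiated B, and differentiated A reached 24 nt further than differentiated B. The C2C12 replicates had 76 of 81 covered nucleotides in common, and the differentiated replicates 78 of 105.

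The enrichment of region 4 over input differed between the states. Its log2 fold enrichment was 4.61 in C2C12 A and 4.35 in C2C12 B, which is 24.3-fold and 20.4-fold. In differentiated A the 4 adjoining peaks had log2 values of 1.86, 1.86, 1.88 and 1.59, and in differentiated B the peak had 1.70. Both C2C12 values were higher than all differentiated values. How many other regions of the series separate in this way was not counted. Taking the best peak of each library, the means were 4.48 ± 0.178 and 1.79 ± 0.126 (SD, n = 2 each), lower in differentiated C2C12 by 2.69 log2 units. The labels list a separate input for each state. If the replicates of a state shared it, these SDs leave out its error, and state and input cannot be told apart. The −log10 p values of the same best peaks were 8.06 and 6.67 for the C2C12 libraries, against 8.35 and 8.21 after differentiation, so by this score both differentiated values were the higher ones.

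Within its own list, the C2C12 site ranked 12 of 594 by fold enrichment in replicate A and 26 of 591 in replicate B, but 395 and 441 by −log10 p. It lay at an edge of each list. Among the 199 other peaks of C2C12 A with a −log10 p as low or lower, 0 had a higher fold enrichment, and among the 150 such peaks of C2C12 B there were also 0. Ties were not counted as higher, and several other peaks of C2C12 B had exactly the same pair of scores (6.67 and 4.35). In differentiated A the best peak of the site ranked 742 of 1499 by fold and 941 by −log10 p, and 322 of 558 peaks with a −log10 p as low or lower had a higher fold. In differentiated B it ranked 821 of 1211 by fold and 769 by −log10 p, and 319 of 442 such peaks had a higher fold. The numbers of IP and input reads behind these scores are unknown, and whether few input reads set the C2C12 folds was not tested.

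**Figure D2:**
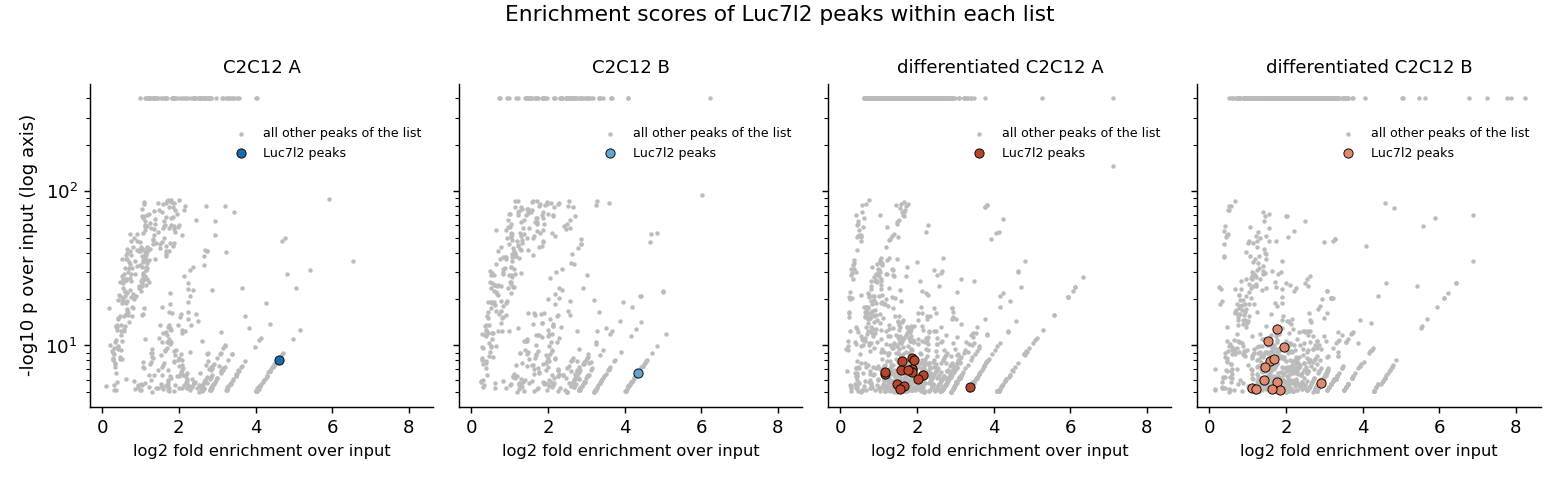
Deposited scores of all peaks in each of the 4 lists, with the log2 fold enrichment over input on the x axis and −log10 p on a log y axis. Grey points are all other peaks of the list and coloured points are Luc7l2 peaks. The single C2C12 peak sits at the right edge of the points at its −log10 p in both replicates, whereas most differentiated peaks sit at log2 values between 1.10 and 2.15.

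To set this against other sites kept in both states, the same difference was taken in each of the 77 regions with a peak in all 4 lists. The median difference, differentiated minus C2C12, was -0.25 log2 units, with quartiles of -0.72 and 0.56. Of the 77 regions, 46 were higher in C2C12. Region 4 of Luc7l2, at -2.69, had the lowest value of the 77. The gene was chosen with these lists known, and the labels list a separate input for each state. This rank is therefore a description only. Outside the 4 loci that held at least 5% of any list, the median over 40 regions was -0.28. Luc7l2 was necessarily the lowest there too, since these 40 are among the 77. By mean enrichment in C2C12 it ranked 6 of these 40, and in differentiated C2C12 it ranked 26.

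**Figure D3:**
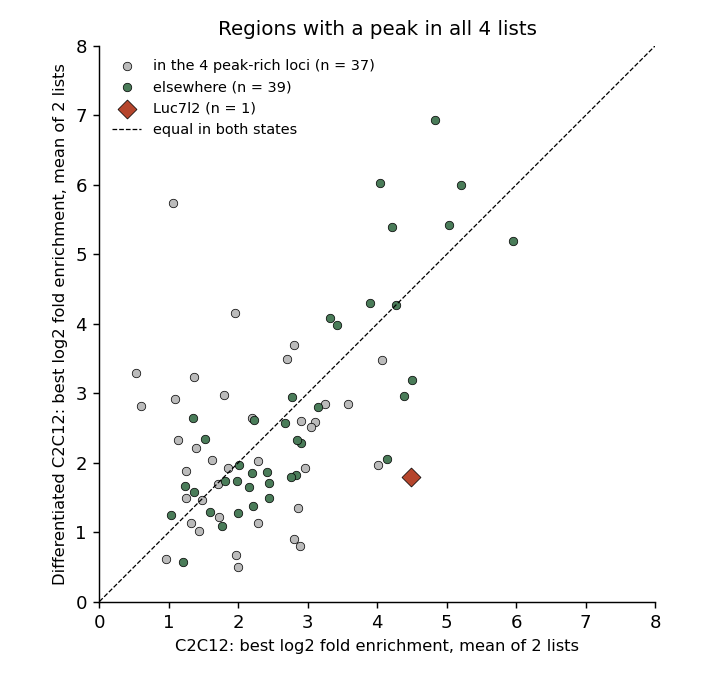
Best log2 fold enrichment in the 77 regions with a peak in all 4 lists, as the mean of the C2C12 lists (x axis) and of the differentiated C2C12 lists (y axis). Grey points lie in the 4 peak-rich loci, green points elsewhere, and the diamond is region 4 of Luc7l2, at 4.48 and 1.79, farthest below the dashed line of equal values.

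The remaining 6 regions found in both differentiated replicates had no C2C12 peak. In region 1 the best log2 fold enrichment was 1.48 in A and 1.58 in B. In region 3 it was 1.17 and 1.76, and in region 6 it was 2.15 and 1.75. As folds over input these ran from 2.25 to 4.43, well below the C2C12 values of region 4. In region 8 the best log2 value was 1.87 in A and 1.95 in B. In region 9 it was 1.93 and 1.45, and in region 11 it was 1.76 and 1.63.

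Ordered by their means, the 7 recurrent regions ran from 1.95 ± 0.280 in region 6 to 1.46 ± 0.413 in region 3 (SD, n = 2). Between them came region 8 at 1.91 ± 0.0518, region 4 at 1.79 ± 0.126, region 11 at 1.70 ± 0.0892, region 9 at 1.69 ± 0.340 and region 1 at 1.53 ± 0.0752. The largest step between neighbours in this order was 0.160, and the whole range was 0.486 against a largest replicate SD of 0.413. Each step was smaller than the larger SD of the pair it separates, so no neighbours in this order differed beyond their spread. Replicate A was higher in 4 of the 7 and replicate B in 3.

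**Figure D4:**
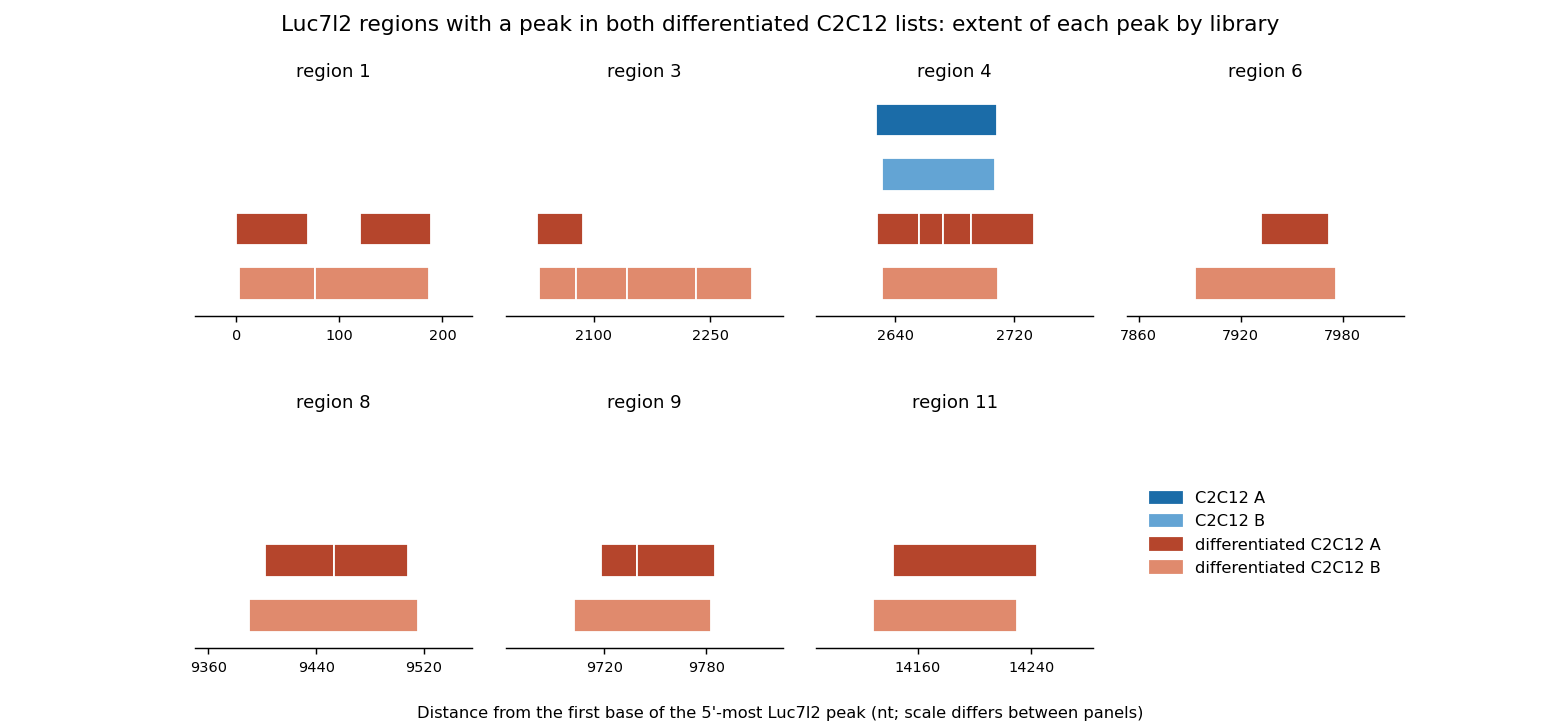
Extent of each peak in the 7 regions with a peak in both differentiated C2C12 lists. Each panel is a region, the x axis is the distance in nt from the first base of the 5′-most peak, each row is a library, and white lines part adjoining peaks. Region 4 is the panel with peaks of all 4 libraries, and region 3 shows 1 short peak in A within a run of 4 peaks in B.

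The replicates placed most of these regions at nearly the same position. The 5′ ends of A and B lay within 16 nt in 6 of the 7 regions, and the 3′ ends within 15 nt in 5. In region 8, from 38514900 to 38515025, the replicates had 106 of 126 covered nucleotides in common. In region 9, from 38515212 to 38515294, they had 65 of 83, and in region 11, from 38519638 to 38519753, they had 88 of 116. Region 1, from 38505510 to 38505698, had 134 of 189 in common. Region 6, from 38513403 to 38513485, had 40 of 83 in common, because the peak of B began 39 nt further 5′.

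Region 3, from 38507536 to 38507813, was the one where the replicates differed most. Both began within 3 nt of each other, but A had 1 peak of 60 nt and B had 4 adjoining peaks that ran 218 nt further 3′. The B peaks had −log10 p values of 5.26, 10.7, 12.7 and 5.99. The value of 12.7 was the highest of any Luc7l2 peak, and that peak, from 38507653 to 38507741, had no counterpart in A. The common part was 57 of 278 nt.

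Counted by peak, 13 of 16 Luc7l2 peaks of differentiated A overlapped a peak of B by at least 1 nt (81.3%, 95% Wilson interval 57.0 to 93.4). In the other direction 9 of 13 did (69.2%, 42.4 to 87.3). Over all peaks of these lists the shares were 72.0% and 67.0%, inside both intervals. The intervals treat peaks as independent, but 8 of the 16 peaks of A and 6 of the 13 of B touched another peak of their list. They are therefore likely too narrow. By region, 7 of the 10 of A and 7 of the 9 of B were shared. A peak of either C2C12 list was overlapped by 4 of the 16 peaks of A (25%) and 1 of the 13 of B (7.69%), all in region 4. Over all peaks of differentiated A, 38.5% overlapped C2C12 A and 36.6% overlapped C2C12 B, and for differentiated B the shares were 34.7% and 33.8%.

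The 7 differentiated peaks without a counterpart in the other replicate overlapped the others in score but reached higher folds. In A the 3 such peaks had log2 fold enrichments of 1.61 (region 2), 3.39 (region 5) and 2.02 (region 10). In B the 4 such peaks were 2 in region 3, with 1.76 and 1.42, and those of region 7 (1.84) and region 12 (2.92). The highest Luc7l2 fold enrichment of each differentiated list thus stood in a peak seen in 1 replicate. The peaks of regions 5 and 12 were 15 and 14 nt wide, the narrowest of all 31, with −log10 p of 5.38 and 5.74.

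Set against the whole of their lists, the differentiated peaks of Luc7l2 were many but moderate in score. Their median log2 fold enrichment was 1.81 in A and 1.63 in B, compared with 1.87 and 2.16 over the lists and 2.14 and 2.23 outside the 4 peak-rich loci. In A, 6 of 16 exceeded the list's median and in B 1 of 13. Their −log10 p ran from 5.23 to 8.35 in A and from 5.11 to 12.7 in B, below the list medians of 14.9 and 14.6. Outside the peak-rich loci those medians were 6.86 and 6.90, next to 6.76 and 5.99 for Luc7l2. By −log10 p the best Luc7l2 peak was 941st of 1499 in A and 624th of 1211 in B. With every list cut to the 591 peaks of highest −log10 p, a comparison chosen after seeing the data, the differentiated lists kept 0 Luc7l2 peaks and the C2C12 lists kept 1 each. This only restates the ranks, since 941 and 624 lie beyond 591 and the C2C12 peaks ranked 395 and 441.

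The rank of Luc7l2 by number of peaks depended on how peaks were linked. When peaks of one strand up to 10 kb apart were linked, its domain held 16 peaks in A and 12 in B and ranked 8 of 324 and 8 of 290. Linking up to 1 kb gave ranks of 24 and 23. In C2C12 the domain was 1 peak, ranked 53 of 133 and 62 of 138 together with all other single peaks. Of 517 such domains over the 4 lists, 9 had at least 10 peaks in both differentiated lists, and 4 of these, Luc7l2 among them, had at most 2 in each C2C12 list. Other peaks of the plus strand lay more than 10 kb from the window in every list. The nearest outside the window lay 17.0 kb 5′ of it in both differentiated lists, from 38483961 to 38484006 in A and from 38483962 to 38484005 in B. Their log2 values were 1.29 and 1.24, against 1.17 and 1.10 in the first peaks inside. In the C2C12 lists the nearest peak on that strand lay 3744 kb from the window.

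Adjoining peaks are not separate measurements. Luc7l2 had 5 adjoining pairs in differentiated A and 4 in B. In region 4 of differentiated A, 2 adjoining peaks had identical −log10 p (7.01) and log2 fold enrichment (1.86). Joining touching peaks left 10 Luc7l2 peaks on average in the differentiated lists and 1 in the C2C12 lists.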

How the data were processed

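Per the study's methods, reads were trimmed, filtered for repetitive elements, aligned to mm9 with STAR and freed of PCR duplicates, and peaks were called with CLIPper. One list was deposited for each IP library, and whether calling used each library alone is not stated. The authors deposited, beside each position, a −log10 p of IP against size-matched input reads and a log2 fold enrichment. The 6-column lists have no header, so column meanings rest on the values and the methods; all −log10 p are at least 5 and at most 400, so peaks below the methods' cutoff are included, and whether the values carry the stated Bonferroni correction is not known. The repeat filter and the p threshold decide which sites can appear. Read totals were not used here, so depth and single-peak precision are unknown. The labels list 1 input per state and the methods 1 per replicate.

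The members, lists and comparisons were chosen with earlier results of these data known. Every cluster of Luc7l2 was reported, with peak values where at least 2 lists had a peak. Starts were converted to count from 1. Clusters joined peaks up to 500 nt apart, domains up to 10 kb, and regions touching peaks. Since 75 peaks end beyond GRCm38 chromosomes, that genome was not used for sequence or annotation, and no sequence is shown. Overlaps matched bedtools 2.31.1, and the functions were tested on simulated intervals. Replicates are called biologically independent by the study. Inputs entered only through the deposited scores. Python 3.11.15, pandas 2.3.3, scipy 1.17.1 and matplotlib 3.10.9 were used.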

Additional observations from a re-analysis of the deposited data

How the results depend on the processing

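The direction of the state difference in Luc7l2 (peak number, share of the list and log2 fold enrichment) was recomputed in 24 values and reversed in 2 of them. Most of these values could not reverse. Leaving out 1 replicate could not, since each differentiated list exceeded each C2C12 list in peak number and share. No setting could turn the log2 difference, since the highest differentiated Luc7l2 peak (3.39) lay below the lowest C2C12 peak (4.35). The 2 reversals came from the log2 minimum of 2 and from lists of equal length. The latter was fixed by the −log10 p ranks of the Luc7l2 peaks. The count of 2 in 24 is therefore no measure of robustness. The alternatives with lists of equal length, without the peak-rich loci and with the best peak of region 4 were chosen after seeing the data. No paired analysis was possible because the results come from no test and the labels do not say that libraries with the same letter share a batch. Depth is unknown, and with 2 libraries per state the spread between replicates is the only error shown. If replicates shared the input that the labels list for each state, that spread leaves out the error of the input. The causes of the changes below were not tested beyond what a stricter or shorter list removes by construction.

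With a −log10 p minimum of 8, C2C12 had 0.5 Luc7l2 peaks on average and differentiated C2C12 had 3 (difference 2.5), covering 40.5 and 212 nt. The shares of the list were 0.126% and 0.360% (difference 0.235), and replicate overlap was 0% and 33.3%. This left 2 clusters, of which 2 had a peak in both differentiated lists and 0 in every list, and 4 regions, of which 1 and 0 did.

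With a log2 minimum of 2, differentiated C2C12 had 2 peaks on average (difference 1), covering 86 nt, with 0% replicate overlap. The shares were 0.363% in C2C12 and 0.295% in differentiated C2C12, a reversed difference of -0.0679. The median log2 value became 2.53 in differentiated C2C12 (difference -1.94). There were 4 clusters and 5 regions, 0 of them in both differentiated lists and 0 in every list.

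Lists of equal length reversed the difference in peak number to -1, with 0 peaks in differentiated C2C12. Merging touching peaks gave a difference of 9 peaks and shares of 0.405% and 1.62% (difference 1.21). Without the peak-rich loci the shares were 0.398% and 2.03% (difference 1.63). Linking up to 100 nt gave 11 clusters. A reciprocal overlap of 50% gave a replicate overlap of 34.5% in differentiated C2C12. Domains linked up to 1 kb ranked 24 and 23 in the differentiated lists, and domains ranked by covered nucleotides ranked 91 and 109 in C2C12.

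With one replicate left out, the log2 difference ran from -2.88 (without C2C12 replicate B) to -2.63 (without C2C12 replicate A). The number of regions in every remaining differentiated list ran from 7 to 11, the latter without differentiated replicate B.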
